A study of Mus musculus with 11 samples.

Results

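The comparison set stromal stem and progenitor cells of the bone marrow from mice given 4 doses of doxorubicin (DOX4X) against the same cells from mice given phosphate-buffered saline (PBS). It used 8 of the 11 bulk RNA-seq libraries of the series, 4 in each group, chosen by their treatment labels. All mice were female and carried Lepr-Cre;LSL-tdTomato+/-, in which Cre driven from the leptin receptor gene switches on the red protein tdTomato. The DOX4X mice were 8 to 10 weeks old and received 5 mg/kg intravenously at each of 4 injections, with 1 week between injections. The PBS mice received 4 intravenous injections of saline, and their age is not given in the sources used here. Cells were collected 8 weeks after treatment, and the labels do not say from which injection this was counted. The other 3 libraries came from mice of the same genotype given a single intravenous dose of 10 mg/kg (DOX1X). They entered the estimate of spread, and their values stand beside the main ones where named. The study asks how chemotherapy affects skeletal progenitors.

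Leptin receptor-positive stromal cells surround the sinusoids of adult marrow, supply the chemokine Cxcl12 and stem cell factor (Kitl) to blood-forming cells, and give rise to osteoblasts and marrow adipocytes. Cells that turn towards bone secrete collagen and acidic phosphoproteins of the SIBLING family, which are phosphorylated by the Golgi kinase Fam20c, while metalloproteinases and their inhibitors control the turnover of the matrix. Doxorubicin is an anthracycline that traps topoisomerase II on DNA. The reporter marks every cell whose lineage has expressed the leptin receptor, so the sort can hold descendants such as osteoblasts beside the progenitors themselves.

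The libraries held 29540422 to 42784036 counts in PBS and 31129352 to 36888310 in DOX4X. The labels of 1 control, here PBS 4, disagree: the title starts like those of the doxorubicin samples, whereas the treatment is given as PBS and the library is named in sequence with the controls. On the first principal component of the 8 libraries, which held 24.6% of the variance, PBS 4 lay at -64.1, the other PBS libraries at 18.1, 9.23 and -18.4, and the DOX4X libraries at 24.1, 44.9, -21.3 and 7.45. PBS 4 thus stood apart from both groups on this component. On the second component, which held 20.2%, PBS 1 to 3 lay at 49.9, 23.7 and 25.6. The DOX4X libraries lay there at -26.4, -20.2, -40.2 and -10.6, and PBS 4 lay between these and the other controls at -1.80. Values without PBS 4 are given where leaving it out changed a call. By the column names, flow cell 1 carried every PBS library and flow cell 2 every DOX4X library. Flow cell and treatment can be told apart only through DOX1X, with DOX1X 1 and 2 on flow cell 1 and DOX1X 3 on flow cell 2. A fit with this term beside the groups is called the flow cell fit below. Where its values differ from those without the term, the shift comes only from DOX1X 3 against DOX1X 1 and 2. All 18 identity genes of leptin receptor-positive stroma were tested and had at least 5 CPM (counts scaled to library size with TMM factors), and Lepr itself had 7661, 5679.6, 7144 and 5431 CPM in PBS 1 to 4. None of the tested markers of other marrow cells was at 0 in all 8 libraries, and their levels are given with the results they move with. In bulk RNA, fewer cells of a type and less RNA per cell cannot be told apart.

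After 4 doses, 26 of 17838 genes passed the threshold (adjusted p under 0.05 in the quasi-likelihood test of edgeR), which is 0.146% of the genes tested, and all 26 were lower. Their log2 fold changes ran from -2.61 to -0.45 and their edgeR adjusted p from 0.017 to 0.048. They encode a mineral-matrix phosphoprotein (Spp1) and the kinase of its family (Fam20c), matrix proteases and inhibitors, adhesion receptors, a collagen hydroxylase, a guidance ligand with its receptor, and several enzymes and membrane proteins. No gene rose past the threshold, although 1071 genes (6% of those tested) were higher and 1400 (7.85%) lower at an unadjusted p under 0.05. DESeq2 called 178 genes higher and 412 lower, and limma-voom called 4 higher and 52 lower. The DOX4X libraries all lay below the PBS libraries for 834 genes (4.68%), the 26 included, and all above them for 566 (3.17%). Counts within the gene lists below are to be set beside these shares. The median 95% interval of the log2 fold change had a half-width of 0.33 in the 26 genes and of 0.25 in the 10947 genes with at least 5 CPM in PBS. The number of genes past the threshold depended on single libraries: it was 73 lower and 7 higher without PBS 4, 43 lower and 4 higher without DOX1X 3, 7 without DOX4X 4, between 1 and 3 without any other PBS or DOX1X library, and 0 without DOX4X 1, DOX4X 2 or DOX4X 3. The p-values measure the spread between these samples, which the labels number as biological replicates.

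**Figure D1:**
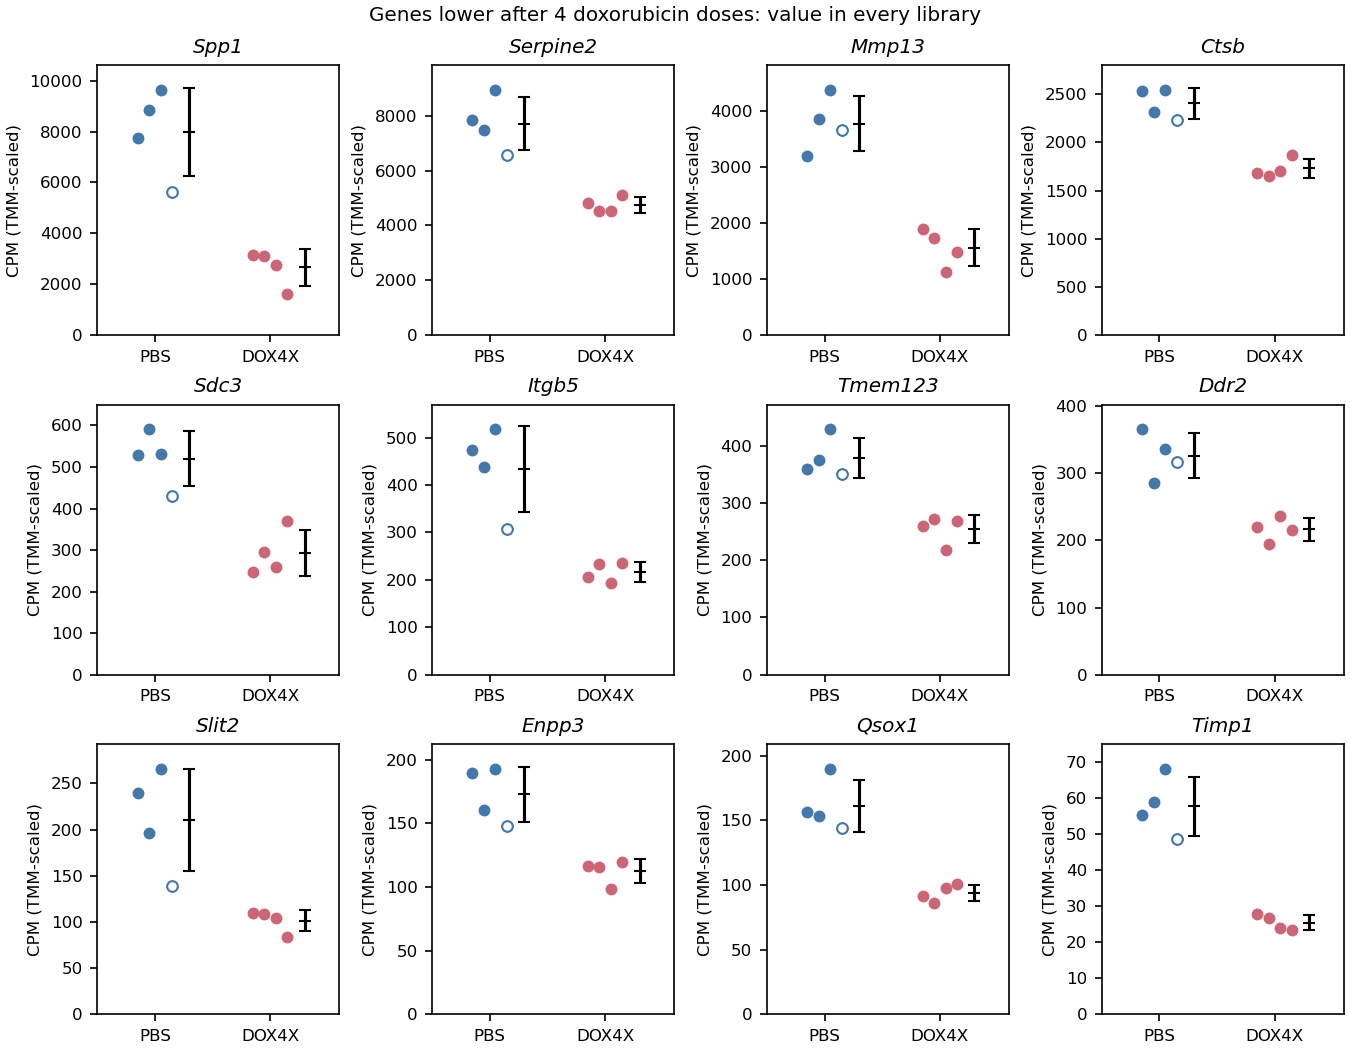
Level of 12 of the 26 genes in each PBS (blue) and DOX4X (red) library, in TMM-scaled CPM on linear axes that start at 0, with the mean and SD of each group as a bar. PBS 4 is drawn as an open circle, and every DOX4X point lies below every PBS point in each of the 12 panels.

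The mineral-matrix genes were led by Spp1, which encodes osteopontin, a secreted SIBLING phosphoprotein that binds integrins and mineral. Its level was 7753, 8849, 9642 and 5641 CPM in PBS 1 to 4 and 3143, 3121, 2759 and 1625 CPM in DOX4X 1 to 4. The groups did not overlap, with PBS 4 the lowest control and DOX4X 4 the lowest library of all. The log2 fold change was -1.58 (95% interval -2.04 to -1.12, edgeR adjusted p = 0.037). Fam20c, the kinase that phosphorylates these proteins in the secretory pathway, had 109.7, 81.3, 88.4 and 39.4 CPM in PBS and 35.0, 28.4, 27.7 and 29.1 CPM in DOX4X. Its PBS 4 value lay close above the highest DOX4X library and far below the other controls. The log2 fold change of Fam20c was -1.41 (95% interval -1.92 to -0.90, edgeR adjusted p = 0.048), and -1.63 without PBS 4 (edgeR adjusted p = 4.03e-04).

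The other SIBLING genes did not pass the threshold. Ibsp, bone sialoprotein, had 5778, 6724, 8003 and 6602 CPM in PBS and 5169, 3699, 4634 and 4005 CPM in DOX4X, without overlap (log2 fold change -0.63, edgeR adjusted p = 0.12). Dmp1, an osteocyte matrix protein, had 165, 227, 242 and 41.3 CPM in PBS and 34.0, 68.1, 28.5 and 38.0 CPM in DOX4X. For Dmp1 the first 3 controls lay above every DOX4X library and PBS 4 lay within the DOX4X range. The log2 fold change of Dmp1 was -2.0 (edgeR adjusted p = 0.11), and -2.32 without PBS 4 (edgeR adjusted p = 0.0065). All 6 genes tested of the SIBLING list, which also holds Mepe and Fam20a, had log2 fold changes below 0 (median -1.49), against 8529 of 17838 genes (median 0.01). The SIBLING median in the flow cell fit was -1.49, while Ibsp had -0.20 in that fit.

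In the broader list of osteoblast and bone matrix genes, 27 of 29 genes tested were below 0, with a median of -0.41, and 2 passed the threshold, Spp1 and Bmp8a. Their summed level ran from 23379 to 39075 CPM in PBS and from 18764 to 22984 CPM in DOX4X. Enpp1, which makes the mineralisation inhibitor pyrophosphate, had 333, 268, 394 and 266 CPM in PBS and 195, 201, 154 and 192 CPM in DOX4X without overlap (log2 fold change -0.77, edgeR adjusted p = 0.065, and 0.032 without PBS 4). The transcription factors that set the osteoblast fate differed less: Runx2 had 187 to 206 CPM in PBS and 156 to 172 CPM in DOX4X (log2 fold change -0.26, 95% interval -0.42 to -0.11, edgeR adjusted p = 0.16). Sp7, which acts after Runx2, had 81.4 to 118 CPM in PBS and 78.7 to 95.1 CPM in DOX4X, which overlapped, and its log2 fold change of -0.24 turned to 0.12 in the flow cell fit. PBS 4 was the lowest control for 23 of the 29 genes of this list, against 32.7% of all genes tested. Without PBS 4 the median of the list was -0.60 and 6 genes passed the threshold, Dmp1, Enpp1, Ank and Sgms2 beside the former 2. In the flow cell fit the median was -0.22.

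Matrix proteases and their inhibitor formed the next group. Mmp13, a collagenase of bone and cartilage, had 3193, 3852, 4373 and 3663 CPM in PBS and 1896, 1726, 1133 and 1491 CPM in DOX4X. The lowest control lay well above the highest DOX4X library, and the lowest control was PBS 1. The log2 fold change was -1.27 (95% interval -1.67 to -0.88, edgeR adjusted p = 0.043). Mmp9, a gelatinase made by osteoclasts and neutrophils as well as by stroma, had 124, 65.9, 63.9 and 48.5 CPM in PBS and 22.1, 21.8, 17.5 and 18.6 CPM in DOX4X. PBS 1 stood far above the other controls, and the log2 fold change was -1.92 (95% interval -2.50 to -1.33, edgeR adjusted p = 0.043). The summed markers of osteoclasts, Mmp9 among them, ran from 602 to 967 CPM in PBS and from 628 to 1014 CPM in DOX4X. Those of neutrophils ran from 198 to 674 and from 281 to 1103 CPM. The osteoclast sum also holds Car2, which is on the erythroid list too, with means of 229 CPM in PBS and 406 CPM in DOX4X. The osteoclast markers Oscar, Calcr, Dcstamp, Ocstamp and Siglec15 were not among the genes tested, so the sum is a weak measure of osteoclasts. Timp1, a secreted inhibitor of metalloproteinases, had the smallest p of all genes, with 55.3, 59.0, 68.2 and 48.7 CPM in PBS and 27.9, 26.7, 23.9 and 23.4 CPM in DOX4X. The Timp1 groups did not overlap, and its log2 fold change was -1.18 (95% interval -1.46 to -0.91, edgeR adjusted p = 0.017). Of the 21 metalloproteinase and inhibitor genes tested, 16 were below 0 and 3 passed the threshold, with a median of -0.29 that was -0.03 in the flow cell fit. In the related ADAM and ADAMTS proteases 15 of 21 were below 0 (median -0.16, and 0.04 in that fit) and none passed the threshold, with 3 lower and 1 higher at an unadjusted p under 0.05.

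The promoters of Spp1, Mmp13 and Timp1 are shown because these genes led the bone-matrix and protease groups and all moved in the same direction. Each line gives the 250 bases before the annotated start site from the RefSeq table of GRCm38.p6, which is another build than the GRCm39 named in the submitters' processing notes. The windows are chr5:104434861-104435110 for Spp1, chr9:7272264-7272513 for Mmp13 and chrX:20869916-20870165 for Timp1, all on the plus strand. The table holds a second Spp1 window, chr5:104435942-104436191, which is not shown and had no match to any of the motifs searched. Capitals mark matches on either strand to motifs of the transcription factors AP-1, RUNX and SP1 and of the TATA box, whose letters are given below.
Spp1: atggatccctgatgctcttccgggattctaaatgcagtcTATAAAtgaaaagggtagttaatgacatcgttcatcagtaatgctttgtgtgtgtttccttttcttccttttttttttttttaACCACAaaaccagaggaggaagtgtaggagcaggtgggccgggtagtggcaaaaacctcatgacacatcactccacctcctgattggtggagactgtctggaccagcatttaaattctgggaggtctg
Mmp13: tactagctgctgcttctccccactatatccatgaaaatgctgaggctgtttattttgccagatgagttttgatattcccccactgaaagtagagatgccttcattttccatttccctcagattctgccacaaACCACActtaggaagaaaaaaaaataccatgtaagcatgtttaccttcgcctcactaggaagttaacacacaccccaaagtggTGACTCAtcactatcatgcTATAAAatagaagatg
Timp1: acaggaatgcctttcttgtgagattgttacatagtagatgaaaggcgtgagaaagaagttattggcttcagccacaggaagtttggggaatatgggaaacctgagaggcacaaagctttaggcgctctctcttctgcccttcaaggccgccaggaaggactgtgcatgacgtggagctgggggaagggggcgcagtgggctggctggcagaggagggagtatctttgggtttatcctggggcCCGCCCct

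The Mmp13 window held an AP-1, a RUNX and a TATA match, the Spp1 window shown a RUNX and a TATA match, and the Timp1 window an SP1 match. RefSeq promoter windows were found for 21 of the 26 genes (25 windows, since some genes have more than 1 start site). Mmp9, Ctsb, Skil, Gpr27 and Tmem100 had no entry. The AP-1 motif, searched as TGANTCA, was in 1 of these 25 windows, against 6.75% of all 32851 windows of the same length. The RUNX motif, searched as TGTGGT, was in 2 of 25 (8%), against 14% of all windows. The TATA box, searched as TATAAA, was in 5 of 25 (20%), against 12.4% of all windows. The SP1 motif, searched as GGGCGG, was in 15 of 25 (60%), against 32.7% of all windows. The motifs share no overlapping letters in the 3 windows shown. No test was made of these shares, and a match is a stretch of letters and not a measured binding site.

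Receptors that tie cells to matrix were lower as well. Itgb5, the integrin subunit that pairs with the alpha V chain to bind vitronectin, had 474, 438, 518 and 306 CPM in PBS and 206, 232, 193 and 235 CPM in DOX4X. PBS 4 was again the lowest control, and the log2 fold change was -1.0 (95% interval -1.33 to -0.68, edgeR adjusted p = 0.043). Sdc3, a heparan sulfate proteoglycan of the cell surface, had 529, 591, 530.4 and 431 CPM in PBS and 248, 295, 259 and 371 CPM in DOX4X, with DOX4X 4 the highest of its group. Its log2 fold change was -0.83 (95% interval -1.12 to -0.54, edgeR adjusted p = 0.048). Ddr2, a receptor tyrosine kinase for fibrillar collagen, had 365, 286, 336 and 317 CPM in PBS and 220.4, 194, 236 and 215 CPM in DOX4X. For Ddr2 the lowest control was PBS 2, and the log2 fold change was -0.59 (95% interval -0.80 to -0.38, edgeR adjusted p = 0.048). These 3 were the genes past the threshold among 30 integrins, syndecans and collagen receptors tested, of which 23 were below 0 (median -0.21). In the flow cell fit 13 of the 30 were below 0 and the median was 0.07, while Itgb5, Sdc3 and Ddr2 had -0.99, -0.96 and -0.54.

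Collagen chains and the enzymes that modify them lay lower without passing the threshold, apart from P4ha3. P4ha3, a catalytic subunit of collagen prolyl hydroxylase, had 32.0, 32.1, 49.7 and 31.9 CPM in PBS and 17.7, 16.9, 18.8 and 17.7 CPM in DOX4X. PBS 3 was the high control and the other 3 were nearly equal, and the log2 fold change was -1.03 (95% interval -1.36 to -0.71, edgeR adjusted p = 0.043). Of the 25 collagen hydroxylases and cross-linkers tested, 24 were below 0 (median -0.27). Without overlap between groups 9 lay lower, and 14 were lower at an unadjusted p under 0.05. Over all genes tested, 47.8% were below 0, 4.68% lay lower without overlap and 7.85% were lower at that unadjusted p. Loxl1, a lysyl oxidase that cross-links elastin, had 365, 401, 469 and 355 CPM in PBS and 204, 221, 231 and 303 CPM in DOX4X (log2 fold change -0.73, edgeR adjusted p = 0.083). Bmp1, the procollagen C-proteinase, had 264, 253, 287 and 260.2 CPM in PBS and 189, 199, 204 and 233 CPM in DOX4X (log2 fold change -0.37, edgeR adjusted p = 0.11). Both enzymes were free of overlap between groups. Of the 25 genes 16 were below 0 in the flow cell fit, with a median of -0.08. Without PBS 4, Loxl4, another lysyl oxidase, also passed the threshold (log2 fold change -0.93, edgeR adjusted p = 0.028).

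Of the 40 collagen chains tested, 32 were below 0 (median -0.49) and none passed the threshold. At an unadjusted p under 0.05, 14 were lower (against 7.85% of all genes), and 5 lay lower without overlap (against 4.68%). The 3 with the smallest p were the chains of collagen VI, a microfibrillar collagen around cells. Col6a2 had 1210.0, 1207, 1351 and 982 CPM in PBS and 697, 697, 662 and 974 CPM in DOX4X (log2 fold change -0.65, edgeR adjusted p = 0.1). Col6a1 had a log2 fold change of -0.55 and Col6a3 of -0.85 (edgeR adjusted p = 0.12 and 0.14), both with overlapping groups. In Col6a3 the controls had 223, 221, 195 and 114 CPM, with PBS 4 inside the DOX4X range of 85.8 to 118 CPM. PBS 4 was the lowest control for 23 of the 40 chains. The median of the chains was -0.11 in the flow cell fit, when 22 of 40 were below 0, and -0.61 without PBS 4. Without that library 3 chains of the list passed the edgeR threshold: Col6a3 (-1.03, adjusted p = 0.028), Col25a1 (-0.83, 0.034) and Col6a2 (-0.73, 0.044).

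Other matrix groups had medians below 0, and no gene of them passed the threshold with all libraries. Of the elastic fibre and microfibril genes 14 of 18 were below 0 (median -0.39, 9 lower and 1 higher at an unadjusted p under 0.05), and Fbn1, fibrillin, had 1469.5, 1345, 1821 and 1186 CPM in PBS and 853, 869, 865 and 1127 CPM in DOX4X. Of the small leucine-rich proteoglycans 9 of 12 were below 0 (median -0.27, 3 lower at an unadjusted p under 0.05), and Lum, lumican, had 389.8, 319, 328 and 282 CPM in PBS and 173, 302, 197 and 179.8 CPM in DOX4X. Of the matrix glycoproteins 24 of 28 were below 0 (median -0.26, 9 lower at an unadjusted p under 0.05). Postn, periostin, a glycoprotein of bone surfaces, had 693, 825, 805 and 277 CPM in PBS and 304, 319, 238 and 313 CPM in DOX4X. The first 3 Postn controls lay above every DOX4X library and PBS 4 lay within their range, and the log2 fold change was -1.15 (edgeR adjusted p = 0.13). Without PBS 4, Fbn1 (-0.73, edgeR adjusted p = 0.038) and Postn (-1.40, 0.0037) passed the threshold, and no other gene of these 3 lists did. The medians of the lists in the flow cell fit were -0.03, -0.09 and -0.20. Beside these matrix lists, the summed markers of endothelial cells ran from 231 to 960.2 CPM in PBS and from 801 to 1489 CPM in DOX4X, and those of B lineage cells from 114 to 191 and 183 to 507 CPM. Their part in the lower matrix values was not tested.

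**Figure D2:**
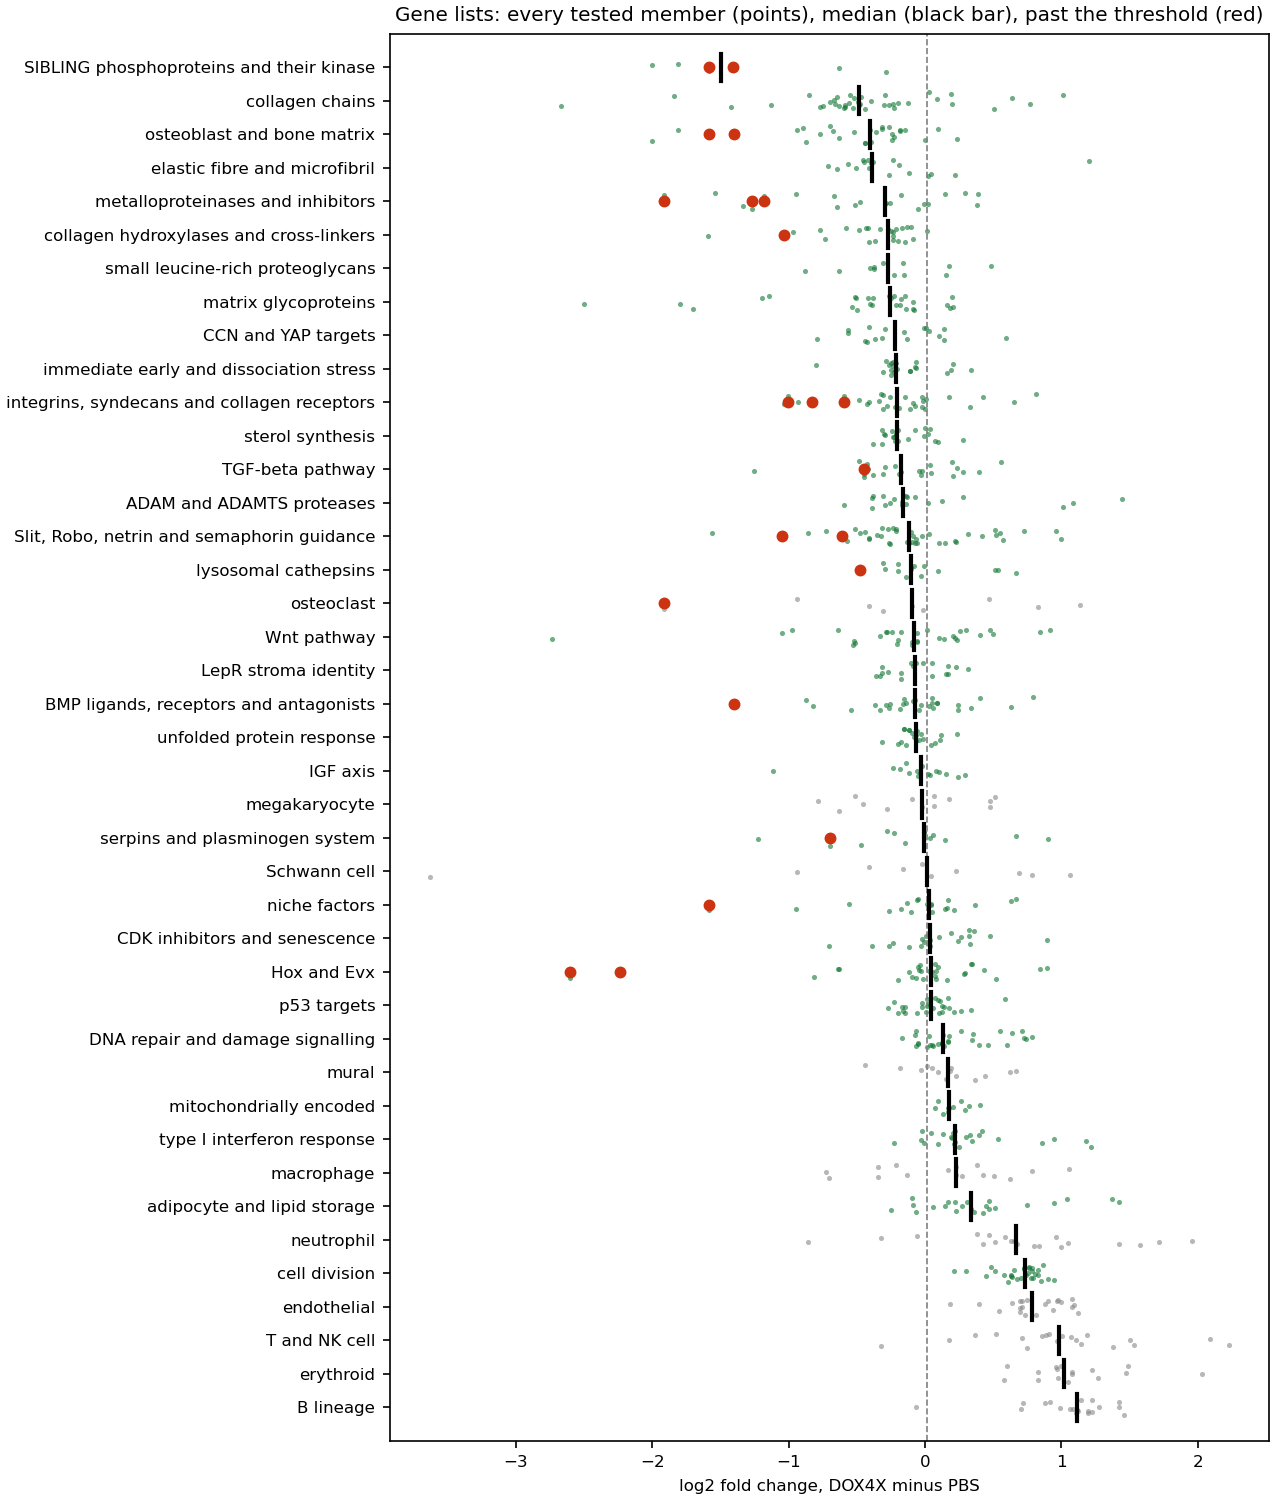
Log2 fold changes, DOX4X minus PBS, of the members tested of each of the 41 gene lists (grey for markers of other cells, red past the threshold) and the median of each list (black bar). The dashed line is the median of all genes tested, 0.01. The SIBLING, osteoblast and collagen lists lie left of 0, with medians of -1.49, -0.41 and -0.49, and the markers of B lineage, erythroid and endothelial cells lie right of it, with medians of 1.11, 1.02 and 0.78.

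Among secreted signals, Slit2 and its receptor Robo1 both fell. Slit2, a guidance ligand first known from axons, had 239, 196, 266 and 139 CPM in PBS and 109, 108, 105 and 84.0 CPM in DOX4X. PBS 4 was the lowest control, and the log2 fold change was -1.05 (95% interval -1.43 to -0.67, edgeR adjusted p = 0.048). Robo1, which binds Slit ligands, went from 45.4 CPM ± 3.12 (SD, n = 4) in PBS to 29.7 ± 3.68 (n = 4) in DOX4X, a log2 fold change of -0.61 (edgeR adjusted p = 0.043). Of the 43 Slit, Robo, netrin and semaphorin genes tested, 29 were below 0 (median -0.12). For the flow cell fit the median was 0.02, and the log2 fold changes were -0.74 for Slit2 and -0.65 for Robo1. Without PBS 4, Slit3 passed as well (-0.50, edgeR adjusted p = 0.032).

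Bmp8a, a bone morphogenetic protein, was low in both groups and fell from 9.0 CPM ± 2.12 (SD, n = 4) to 3.40 ± 0.457 (n = 4), with a log2 fold change of -1.40 (edgeR adjusted p = 0.043). The other BMP ligands, receptors and antagonists had no common direction, with 17 of 29 below 0 (median -0.07), 6 lower and 4 higher at an unadjusted p under 0.05. Bmp4 had 227, 222, 132 and 172 CPM in PBS and 221, 305, 341 and 298 CPM in DOX4X (log2 fold change 0.63, edgeR adjusted p = 0.17), on the side opposite to Bmp8a and with overlapping groups. Skil, which encodes SnoN, a repressor of Smad signalling, had 70.3, 66.0, 71.7 and 69.0 CPM in PBS and 52.3, 53.8, 49.5 and 47.5 CPM in DOX4X. The Skil groups were tight and its log2 fold change was -0.45 (95% interval -0.61 to -0.29, edgeR adjusted p = 0.048), the smallest among the 26 genes. Of the TGF-beta pathway genes 15 of 23 were below 0 (median -0.17), and the receptor genes Tgfbr1 (-0.42) and Tgfbr3 (-0.43) did not pass the threshold (edgeR adjusted p = 0.14 for both), and Tgfbr1 had -0.23 in the flow cell fit. The BMP and TGF-beta medians in the flow cell fit were 0.06 and 0.06. The median was -0.08 for the Wnt pathway (19 of 32 below 0) and -0.03 for the insulin-like growth factor axis (9 of 16 below 0), against 0.01 for all genes. The CCN and YAP targets had -0.22 (12 of 18 below 0), and none of these 3 lists had a gene past the edgeR threshold (at an unadjusted p under 0.05, 7 lower and 2 higher, 0 and 0, and 6 lower and 1 higher). Without PBS 4, Ccn4, a Wnt-induced matricellular protein, passed the threshold (-0.74, edgeR adjusted p = 0.023). In the CCN list, Ccn2, another matricellular protein, had 469, 582, 839 and 454 CPM in PBS and 372, 431, 450.3 and 331 CPM in DOX4X (edgeR adjusted p = 0.21).

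Proteolysis outside the metalloproteinase family was represented by Serpine2 and Ctsb. Serpine2, protease nexin, a secreted inhibitor of thrombin and plasminogen activators, had 7855, 7467, 8943 and 6583 CPM in PBS and 4803, 4535, 4528 and 5119 CPM in DOX4X. Its controls were spread, its DOX4X libraries were not, and the log2 fold change was -0.70 (95% interval -0.94 to -0.46, edgeR adjusted p = 0.048). Ctsb, the lysosomal cysteine protease cathepsin B, had 2536, 2312, 2544 and 2229.7 CPM in PBS and 1684, 1654, 1703 and 1872 CPM in DOX4X (log2 fold change -0.48, 95% interval -0.65 to -0.31, edgeR adjusted p = 0.048). Of the lysosomal cathepsins 12 of 16 were below 0 (median -0.10), and of the serpins and plasminogen system genes 8 of 13 (median -0.01), each with that 1 gene past the threshold. Plat, tissue plasminogen activator, had 34.0, 14.8, 21.7 and 16.5 CPM in PBS and 5.92, 11.5, 10.6 and 9.24 CPM in DOX4X without overlap (log2 fold change -1.23, edgeR adjusted p = 0.12, and -0.78 in the flow cell fit).

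Enzymes and membrane proteins outside these groups made up much of the rest. Qsox1, a sulfhydryl oxidase of the secretory pathway, had 156, 154, 189.9 and 144 CPM in PBS and 91.3, 86.3, 97.6 and 101 CPM in DOX4X, and its log2 fold change was -0.78 (95% interval -0.97 to -0.58, edgeR adjusted p = 0.019). Enpp3, an ectonucleotide pyrophosphatase, had 189, 161, 193 and 148 CPM in PBS and 116, 116, 98.7 and 119 CPM in DOX4X (log2 fold change -0.62, edgeR adjusted p = 0.048). Tmem123, a mucin-like membrane protein, had 358, 375, 429 and 351 CPM in PBS and 259, 271, 218 and 269 CPM in DOX4X (log2 fold change -0.57, edgeR adjusted p = 0.048). In these 3 genes PBS 3 was the highest control and PBS 4 the lowest. Among the others, Epb41l3, a membrane-skeleton adaptor, had narrow groups, with 61.7 to 66.5 CPM in PBS and 41.4 to 46.7 CPM in DOX4X (log2 fold change -0.57). The orphan receptor Gpr27 (-0.56, 25.9 to 28.7 CPM in PBS) and the membrane protein Tmem100 (-0.96, 42.5 to 79.0 CPM in PBS) also fell. The last 3 were low in level: Paqr5, a membrane progestin receptor (-1.19, 7.61 to 11.5 CPM in PBS), St6gal2, a sialyltransferase (-1.62, 4.74 to 9.35 CPM in PBS), and Chst8, a sulfotransferase. Chst8 was the only gene of the 26 under 5 CPM in PBS, with 2.16, 2.20, 3.88 and 1.57 CPM there and 0.441, 0.263, 0.692 and 0.300 CPM in DOX4X (log2 fold change -2.53).

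Evx1, a homeobox gene beside the HoxA cluster, and its antisense partner Evx1os completed the 26. Evx1os had 9.11, 7.14, 11.7 and 6.37 CPM in PBS and 1.32, 0.644, 2.80 and 0.872 CPM in DOX4X (log2 fold change -2.61), and Evx1 had 6.24, 6.47, 7.25 and 4.64 and 1.07, 0.585, 1.74 and 1.80 CPM (log2 fold change -2.24). The kit does not mark strand, so reads from any sequence that these partners share cannot be assigned by strand. The pair may therefore not count as separate signals. The Hox genes as a list did not share the direction, since 14 of 30 Hox and Evx genes were below 0 (median 0.04). The Hox gene with the smallest p was Hoxa13, at the same end of the cluster, with 9.54, 9.98, 12.9 and 10.6 CPM in PBS and 7.74, 3.31, 6.50 and 6.92 CPM in DOX4X (log2 fold change -0.81, edgeR adjusted p = 0.2, and -0.17 in the flow cell fit).

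**Figure D3:**
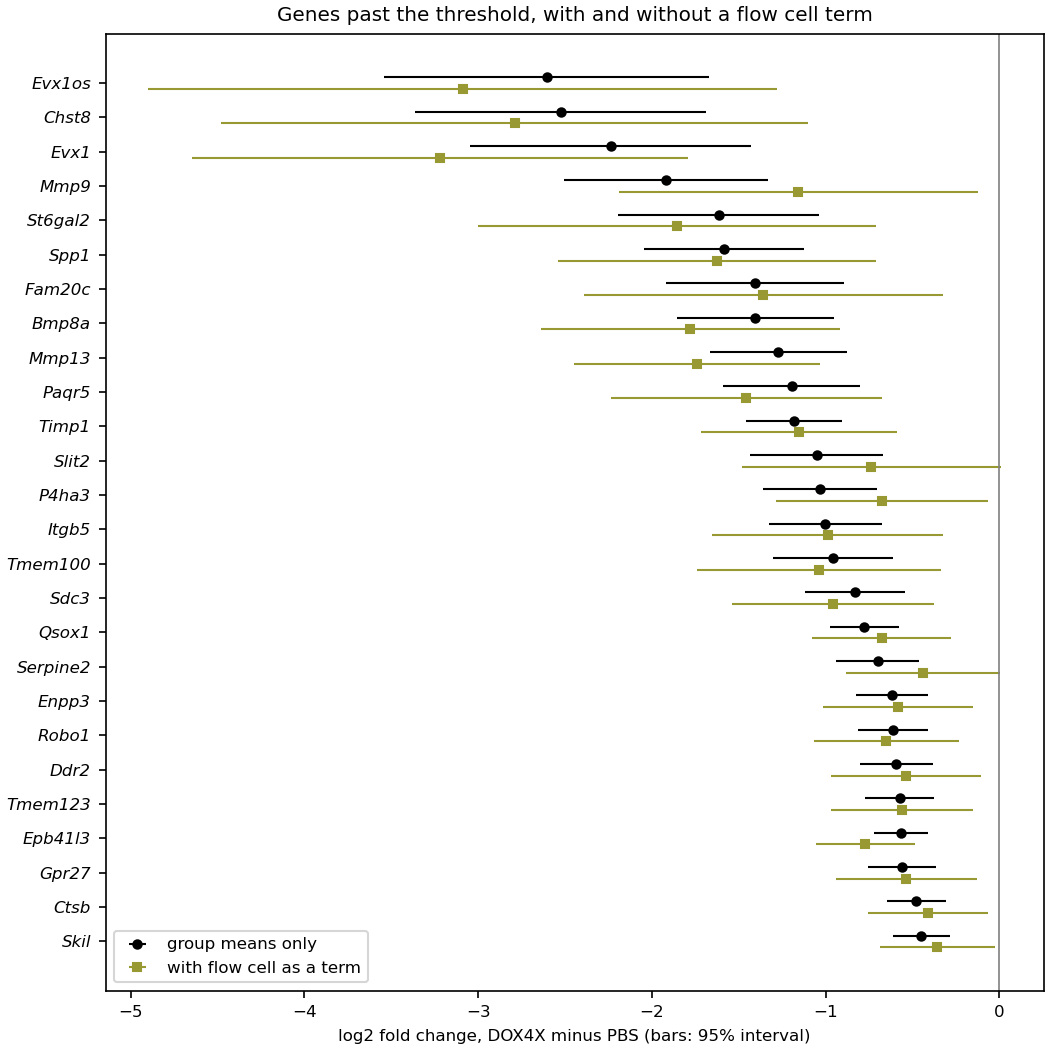
Log2 fold change with its 95% interval for each of the 26 genes, from the fit of group means (black circles) and from the fit with a flow cell term (olive squares). All estimates lie below 0, and with the term the intervals of Serpine2 and Slit2 reach 0.

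In the flow cell fit all 26 genes stayed below 0 and 24 had an unadjusted p under 0.05, but 0 of them passed the threshold. The estimate was larger in size for 12 genes and smaller for 14. It shrank by more than 1.5 times for Mmp9 (-1.16), P4ha3 (-0.68) and Serpine2 (-0.44, 95% interval -0.88 to 0.0049). Spp1 had -1.63 (95% interval -2.54 to -0.71), Mmp13 -1.74 (95% interval -2.45 to -1.03) and Timp1 -1.15 (95% interval -1.72 to -0.59). The flow cell term is set only by DOX1X 3, the only single-dose library on flow cell 2, against DOX1X 1 and 2. Each shift from the fit of group means therefore rests on that single library.

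The single-dose libraries share the PBS controls with this comparison, so their values are set beside the others without a test. All 3 DOX1X libraries lay below all 4 PBS libraries for 20 of the 26 genes, and all 3 lay above all 4 DOX4X libraries for 16. Over all 17838 genes tested these counts were 682 and 497. The 26 genes were chosen for high PBS and low DOX4X values, so nothing is read from the difference. Spp1 had 3889.8, 4042 and 4088 CPM in DOX1X 1 to 3, Timp1 33.2, 47.2 and 39.3 CPM and Mmp13 1558, 2093 and 2528 CPM. Fam20c had 34.0, 33.0 and 32.4 CPM and Evx1os 1.76, 0.970 and 1.92 CPM, which lay within the DOX4X range. Ddr2 had 322, 264 and 282 CPM, with DOX1X 1 inside the PBS range and the others between the groups. DOX1X 3 lay below both other DOX1X libraries for 7 of the 26 genes (26.9%), against 38.0% of all genes tested. The doses, the number of injections and the total given differ between the doxorubicin groups.

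The count without PBS 4 holds 73 lower and 7 higher genes, including 25 of the 26. St6gal2 was the exception. The 55 further genes were chosen after the values of PBS 4 were seen, and the names given here are the first of them by p. For the 48 lower ones among the 55, PBS 4 lay below the other 3 controls in 43. It lay above every DOX4X library in 27, within their range in 12 and below all of them in 9. In order of p they were Postn (-1.40, edgeR adjusted p = 0.0037), Dmp1 (-2.32, 0.0065), Cyb561, a cytochrome of vesicle membranes (-1.79, 0.0069), Sgms2, a sphingomyelin synthase (-0.82, 0.0069), and Ank, a pyrophosphate transporter (-1.12, 0.0069). Cd276, an immune checkpoint ligand (-0.98), Ace, the angiotensin-converting enzyme (-1.52), and Ncam1, a neural cell adhesion molecule (-0.69), followed. Ank had 98.8, 74.0, 96.9 and 47.6 CPM in PBS and 36.1, 48.4, 41.7 and 39.4 CPM in DOX4X, and Ace had 37.5, 46.8, 45.6 and 17.3 and 14.6, 15.5, 11.4 and 18.9 CPM. In both genes the first 3 controls stood above every DOX4X library and PBS 4 inside the DOX4X range. The 7 genes past the threshold on the higher side included Rgcc, Snrpg, Tomm7, Acyp1, Napepld and Rpl35a, with log2 fold changes from 0.47 (Rpl35a) to 0.76 (Acyp1).

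**Figure D4:**
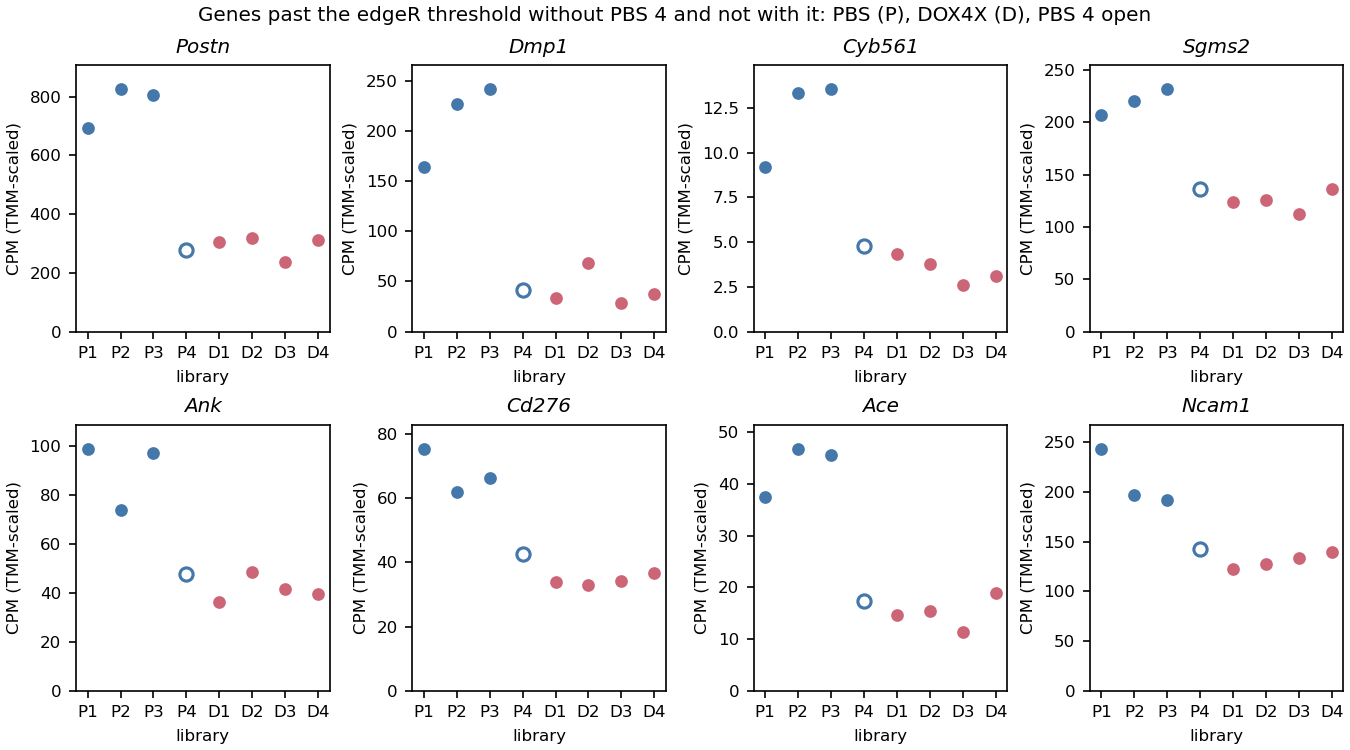
TMM-scaled CPM of the 8 genes with the smallest p among those past the edgeR threshold without PBS 4 and not with it, in each PBS (P, blue) and DOX4X (D, red) library. PBS 4, the open circle, lies near or inside the DOX4X values, as for Postn at 277 CPM against 238 to 319 CPM, while PBS 1 to 3 lie above all DOX4X points in each panel.

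Uncalled genes with separate groups were led on the lower side by Flrt2, a membrane ligand of guidance receptors, with 143, 105, 151 and 132 CPM in PBS and 88.2, 82.2, 58.8 and 63.0 CPM in DOX4X (log2 fold change -0.86, edgeR adjusted p = 0.051). A2m, a broad protease inhibitor, had 524, 669.9, 920.0 and 651 CPM in PBS and 213, 192, 384 and 329 CPM in DOX4X (log2 fold change -1.31, edgeR adjusted p = 0.052). For A2m the single-dose libraries, at 645, 610.4 and 611 CPM, lay within the PBS range. Fap, a surface protease of activated stroma, had 441 to 513 CPM in PBS and 300.0 to 368 CPM in DOX4X (edgeR adjusted p = 0.06). The other 5 with the smallest p were Ptpn13 (-0.52), Lpar1, a lysophosphatidic acid receptor (-0.46), Srxn1, sulfiredoxin (-0.53), Enpp1 (-0.77) and Fam174b (-0.55), with edgeR adjusted p from 0.057 to 0.07. Without PBS 4, A2m, Fap, Ptpn13, Lpar1, Srxn1 and Enpp1 passed the threshold, with edgeR adjusted p from 0.032 to 0.049.

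On the higher side no gene passed. Rgcc, a regulator of the cell cycle also made by endothelium, had 82.9, 94.4, 75.8 and 110.4 CPM in PBS and 127, 129, 176 and 139.6 CPM in DOX4X (log2 fold change 0.65, edgeR adjusted p = 0.091). Tspo, the translocator protein of mitochondria, had 37.5 to 42.1 CPM in PBS and 50.2 to 58.3 CPM in DOX4X (edgeR adjusted p = 0.091). Slc20a1, a phosphate transporter, had 18.3 to 19.8 CPM in PBS and 23.3 to 27.1 CPM in DOX4X (edgeR adjusted p = 0.1). Others by smallest p were Mir6236 (0.65), Mapk1ip1 (0.68), Lmo4 (0.43), Napepld (0.50), Acyp1 (0.66) and the ribosomal protein genes Rps16 (0.33), Rps29 (0.34) and Rpl36a (0.36). Mir6236 had a log2 fold change in the flow cell fit of 0.20. Since 3 of the 12 uncalled higher genes of smallest p were ribosomal protein genes, all 84 such genes tested were then examined, a group chosen after the values were seen. Of them 79 were above 0, 23 lay higher without overlap (against 3.17% of all genes) and none passed the threshold. Their median was 0.24, and 0.14 in the flow cell fit. Many ribosomal protein genes share reads with pseudogenes, and their values as single genes are uncertain.

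Among the niche and identity genes, Cxcl12 and Kitl differed little. Cxcl12 had 58209, 53117, 51113 and 52480.5 CPM in PBS and 46059, 46437, 50757 and 57087 CPM in DOX4X, which overlapped (log2 fold change -0.10, 95% interval -0.35 to 0.15, and 0.12 in the flow cell fit). Kitl had 1205, 949.7, 1006 and 1109.9 CPM in PBS and 1068, 1157, 1031 and 1166 CPM in DOX4X (log2 fold change 0.05, 95% interval -0.16 to 0.26). Lepr had 5494, 4667, 5407 and 4631 CPM in DOX4X, with a log2 fold change of -0.36 (95% interval -0.72 to -0.0016, edgeR adjusted p = 0.36) that turned to 0.28 in the flow cell fit. Pdgfra, a platelet-derived growth factor receptor of stroma, had 762, 616, 580.4 and 533 CPM in PBS and 527, 502, 448 and 529 CPM in DOX4X without overlap (log2 fold change -0.31, edgeR adjusted p = 0.27, and -0.05 in that fit). The identity list had 11 of 18 genes below 0 (median -0.07) and none past the threshold. In it 3 genes were lower at an unadjusted p under 0.05 (against 7.85% of all genes), and 2 lay lower without overlap (against 4.68%). The niche factor list had 9 of 20 genes below 0 (median 0.03), with 4 lower and 2 higher at that unadjusted p. Spp1 was the gene of the niche list past the threshold. The identity list turned in the flow cell fit, with 7 of 18 below 0 and a median of 0.15, and the niche factor list had a median of 0.11.

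Adipocyte and lipid storage genes lay higher without a gene past the threshold. Of 23 tested, 19 were above 0 (median 0.34). At an unadjusted p under 0.05, 8 were higher (against 6% of all genes), and 5 lay higher without overlap (against 3.17%). Fabp4, a fatty acid carrier, had 163, 191, 99.1 and 80.9 CPM in PBS and 237, 513, 406 and 271 CPM in DOX4X, with DOX4X 2 the highest (log2 fold change 1.42, edgeR adjusted p = 0.13, and 0.33 in the flow cell fit). Cd36, a fatty acid transporter, had 28.9, 35.5, 13.6 and 8.41 CPM in PBS and 40.6, 78.3, 62.7 and 42.0 CPM in DOX4X (log2 fold change 1.37, edgeR adjusted p = 0.17, and 1.16 in that fit). Endothelial cells also express both genes, and DOX4X 2 held the highest summed endothelial markers as well. The endothelial gene Pecam1 had 29.7, 30.6, 21.1 and 10.6 CPM in PBS and 36.5, 65.5, 34.9 and 35.4 CPM in DOX4X, and the part of such cells in the Fabp4 and Cd36 values was not tested. Pparg, the regulator of adipogenesis, had 155, 143, 102 and 105 CPM in PBS and 149.7, 189, 189 and 172 CPM in DOX4X (log2 fold change 0.47, edgeR adjusted p = 0.18, and 0.64 in the flow cell fit). Adipoq, adiponectin, had 2019 to 2728 CPM in PBS and 2383 to 2984 CPM in DOX4X, which overlapped (log2 fold change 0.17). In the flow cell fit 20 of 23 were above 0 and the median was 0.47. Sterol synthesis genes were below 0 in 17 of 22, 1 of them at an unadjusted p under 0.05 and none past the threshold, with a median of -0.20, and of -0.05 in the flow cell fit.

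Genes of the damage response and of other stress lists did not pass the threshold. Cdkn1a, the p53-induced cell-cycle inhibitor, had 109.6, 133, 208 and 124 CPM in PBS and 173, 94.1, 151 and 147 CPM in DOX4X, with full overlap (log2 fold change -0.02, 95% interval -0.55 to 0.51, and -0.60 in the flow cell fit), and its sign changed when PBS 3 or DOX4X 2 was left out and with a stricter low-count filter. The p53 targets had 18 of 28 genes above 0 (median 0.04), and among them Ccng1, cyclin G, had 106 to 122 CPM in PBS and 97.0 to 103 CPM in DOX4X (log2 fold change -0.20, edgeR adjusted p = 0.21). DNA repair and damage signalling genes were above 0 in 26 of 32 (median 0.13). Chek2, a checkpoint kinase, had 8.37, 8.48, 7.38 and 6.37 CPM in PBS and 12.2, 13.5, 9.60 and 11.1 CPM in DOX4X (log2 fold change 0.60, edgeR adjusted p = 0.15, and 1.08 in the flow cell fit). The cyclin-dependent kinase inhibitors and senescence genes had 13 of 21 above 0 (median 0.04). Other stress lists were the unfolded protein response (16 of 21 below 0, median -0.07) and the immediate early genes (17 of 21 below 0, median -0.21). Further lists were the type I interferon response (20 of 24 above 0, median 0.22, and -0.38 in the flow cell fit) and the mitochondrially encoded transcripts (11 of 11 above 0, median 0.17, and -0.01 in that fit). At an unadjusted p under 0.05 these lists held 2 lower p53 targets, 3 higher repair genes, 1 lower and 1 higher senescence gene, 4 lower and 1 higher gene of the unfolded protein response, 4 lower immediate early genes, 0 interferon genes and 1 higher mitochondrial transcript. Egr1, an immediate early transcription factor, had 2779, 2597, 2751 and 3226 CPM in PBS and 2571, 2136, 2024 and 2435 CPM in DOX4X (log2 fold change -0.31, edgeR adjusted p = 0.24, and -0.49 in the flow cell fit). In that fit the median was 0.28 for the repair genes, -0.43 for the immediate early genes and -0.04 for the p53 targets.

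Cell-division genes and markers of several blood cells and of endothelium had medians above 0. All 30 cell-division genes were above 0 (median 0.73), none passed the threshold and 4 were higher at an unadjusted p under 0.05. Mki67, the proliferation antigen, had 19.6, 28.0, 19.7 and 10.1 CPM in PBS and 53.4, 38.6, 15.1 and 24.1 CPM in DOX4X, and the groups overlapped (log2 fold change 0.76, edgeR adjusted p = 0.46). Beside it, summed erythroid markers ran from 241 to 722 CPM in PBS and from 497 to 1339 CPM in DOX4X, and neutrophil markers as given above, with DOX4X 1 and 2 the highest. With a covariate for blood-cell markers the median of the cell-division genes was -0.14 and in the flow cell fit 1.90. Among the markers of B lineage, erythroid, T and natural killer, endothelial and neutrophil cells none passed the threshold. Above 0 were 20 of 21 B lineage genes (median 1.11, 15 higher at an unadjusted p under 0.05), 16 of 16 erythroid genes (median 1.02, 9), 19 of 20 T and natural killer cell genes (median 0.99, 3), 22 of 22 endothelial genes (median 0.78, 8) and 17 of 20 neutrophil genes (median 0.67, 2). The T and natural killer cell genes were near the floor, and 1 of the 20 had a group mean of at least 5 CPM. Their sum ran from 13.7 to 23.3 CPM in PBS and from 19.8 to 45.3 CPM in DOX4X. The endothelial median was 0.02 in the flow cell fit, with 12 of 22 above 0, whereas the medians were 1.77 for B lineage, 2.37 for neutrophil, 2.55 for erythroid and 2.07 for the list of T and natural killer (NK) cells. In DOX1X 1 to 3, whose difference sets the flow cell term, summed neutrophil markers were 952, 816 and 258 CPM. Erythroid sums were 947, 1015 and 362 CPM there, cell-division sums 1369, 1461 and 645 CPM and endothelial sums 305, 391 and 573 CPM. The summed B lineage markers given above overlapped narrowly between PBS and DOX4X. The globin gene Hba-a2, which shares reads with its near-identical copy, had 5.45, 4.71, 7.54 and 5.47 CPM in PBS and 16.9, 11.6, 7.91 and 12.4 CPM in DOX4X (log2 fold change 1.08, and 2.56 in the flow cell fit). Macrophage (10 of 16 above 0, median 0.23), mural (11 of 14, 0.17), megakaryocyte (6 of 13, -0.02), Schwann cell (5 of 10, 0.01) and osteoclast markers (3 of 9, -0.09) lay closer to 0, with Mmp9 the 1 gene of them past the threshold. Their medians in the flow cell fit were 0.10, -0.64, 1.68, 0.53 and 0.13. When the blood-cell marker covariate was added, the 26 genes all had values below 0 (median -1.13, against -1.02 without it) and 1 passed the threshold.

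**Figure D5:**
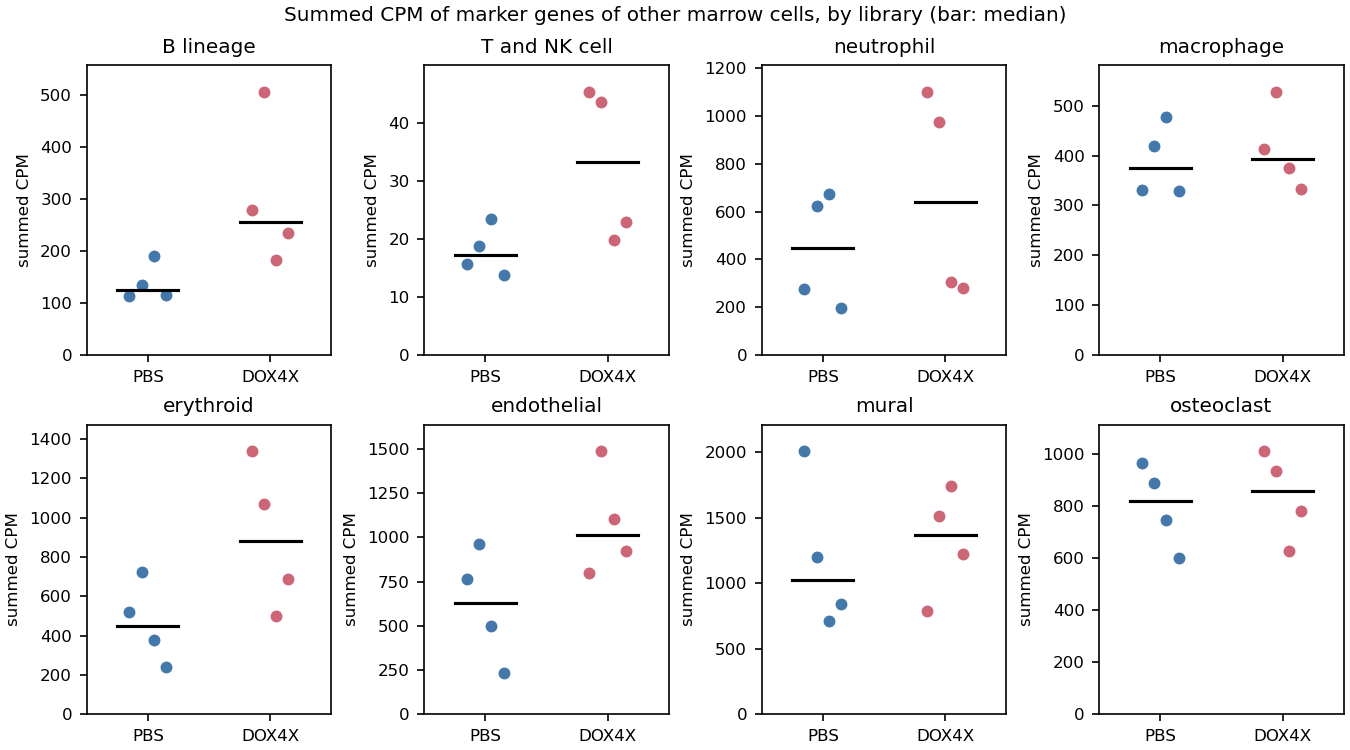
Summed TMM-scaled CPM of marker genes of 8 other marrow cell types in each PBS (blue) and DOX4X (red) library, with the group median as a bar. Sums leave out genes that also mark leptin receptor-positive stroma, and the endothelial sums run from 231 to 960.2 CPM in PBS and from 801 to 1489 CPM in DOX4X.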

How the data were processed

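RNA was measured by bulk RNA-seq in tdTomato-sorted marrow cells, with cDNA made by the SMART-Seq v4 Plus kit, per the labels' protocols. The authors deposited raw read counts, whole numbers without normalization, for each gene. The submitters' processing notes name the build GRCm39 and the tools featureCounts 2.0.1, STAR 2.7.9a, Trim Galore 0.6.6, SAMtools 1.17, FastQC 0.11.5 and MultiQC 1.7. How the authors set strand and multi-mapping reads is not given in the sources used here.

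From these counts, filterByExpr of edgeR 4.0.16 (R 4.3.3) kept 17838 of 24718 genes, with 99.9% or more of every library's counts. All 11 libraries were scaled with TMM factors (0.922 to 1.069) and fitted with group means. DOX4X minus PBS was tested two-sided by the quasi-likelihood method of edgeR. The threshold was 0.05 after Benjamini-Hochberg adjustment over every gene kept. The 95% intervals come from each fold change and its F value, and levels are TMM-scaled CPM. The procedure was also run on simulated counts. These held no flow cell effect and no library set apart from its group, so that run cannot speak to either. Principal components used log2 CPM with a prior count of 2.

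The comparison, the 41 gene lists and the rule for named genes were chosen with earlier results of these data known. The rule names all genes past the threshold, with values per library for the 14 of highest PBS level. It adds the 12 higher and 8 lower genes of smallest p among uncalled genes of 5 CPM or more without overlap between groups, up to 3 members by p of each list, and 12 key genes (Cxcl12, Kitl, Lepr, Pdgfra, Adipoq, Runx2, Sp7, Dmp1, Ibsp, Pparg, Cdkn1a and Mki67). Values per library of Timp1, Chst8, Evx1 and Evx1os, and genes called only without PBS 4, were added after their values were seen. A gene that the rule names is not reported here.

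Alternatives were RLE and upper-quartile scaling, no low-count filter and a stricter one (5 CPM in 3 libraries), DESeq2 1.42.0, limma-voom (limma 3.58.1) with quality weights, a fit of PBS and DOX4X only, a block for replicate number, a flow cell term, a blood-cell marker covariate, a threshold of 0.10, and each library left out.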

Additional observations from a re-analysis of the deposited data

Results flagged for a closer look

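In groups of 4 libraries, single values that stood far from the other 3 were sought with Dixon's test over 276 groups of values. Chance flags about 1 in 20 of such groups, and 14 were found, which is near that share. Among the PBS libraries, PBS 3 was high for P4ha3 (49.7 CPM, the others 31.9 to 32.1), Ptpn13 (133 CPM, the others 107.9 to 110.2) and Fbn2 (73.0 CPM, the others 52.9 to 55.9). PBS 4 was high for Klf6 (498 CPM, the others 403 to 415), and PBS 1 for the summed Wnt pathway genes (3983 CPM, the others 3390.2 to 3476).

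Among the DOX4X libraries, DOX4X 4 was high for St6gal2 (3.16 CPM, the others 1.87 to 1.90), Ngfr (1.14 CPM, the others 0.234 to 0.358), Col6a2 (974 CPM, the others 662 to 697), Fbn1 (1127 CPM, the others 853 to 869), Tgfbr3 (1141 CPM, the others 875 to 905) and Adam9 (179 CPM, the others 148 to 152). DOX4X 2 was high for Yap1 (54.1 CPM, the others 48.1 to 48.5) and Pecam1 (65.5 CPM, the others 34.9 to 36.5), and DOX4X 3 was low for Enpp3 (98.7 CPM, the others 116 to 119). Within DOX4X, DOX4X 4 lay on the side of the PBS values for 6 flagged genes that were lower in the group. Since the flags came at about the chance rate, nothing is read from this.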

How the results depend on the processing

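All 26 genes stayed below 0 under every alternative that tested them (25 of them under the stricter filter), while their number past the threshold moved. The 26 were chosen from these same values and their groups did not overlap. Leaving out a library or changing the scaling or filter could therefore hardly turn a sign, and nothing is read from the kept signs there. Against 26 lower and 0 higher genes, DESeq2 called 412 and 178, limma-voom 52 and 4, and a threshold of 0.10 called 54 and 10. The compared groups alone gave 1 lower gene, the blood-cell marker covariate 2, the flow cell fit 6 (0 of the 26) and the stricter filter 24 lower and 1 higher. With a library left out, between 0 and 73 genes were lower and between 0 and 7 higher. The 0 arose without DOX4X 1, DOX4X 2 or DOX4X 3, when edgeR's unadjusted p was under 0.05 for 1059, 1007 and 1165 lower and 855, 718 and 1187 higher genes, and the cause was not tested. Replicate numbers did not pair the samples: deviations of libraries with the same number correlated at -0.12 to 0.08, and with the replicate block 10 genes were lower, 9 of them among the 26.

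Signs turned for genes not past the threshold. In the flow cell fit Lepr had 0.28, Cxcl12 0.12, Sp7 0.12, Sema5a 0.022 and Atf4 -0.12. Kitl had -0.0016 without PBS 2 and at most 0.11 with another library left out. Cdkn1a had 0.012 with the stricter filter, 0.21 without PBS 3, 0.14 without DOX4X 2 and -0.14 at the lowest, without PBS 1, and Mki67 had -0.31 with the blood-cell marker covariate. The 6 genes past the threshold in the flow cell fit were Fam78b, Mmd2, Ngfr, Plppr5, Shank2 and Tenm4, in each of which DOX1X 3 lay above DOX1X 1 and 2. Intervals were wider with genes of low level included: the median half-width of the 95% interval was 0.38 over all genes tested and 0.25 over those with at least 5 CPM in PBS.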

Other observations

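Some values belong to no comparison above. The 6 genes that passed the edgeR threshold in the flow cell fit rest on the difference among the single-dose libraries. Plppr5, a membrane protein of neurons, had 36.9, 80.5, 68.8 and 52.3 CPM in PBS, 18.5, 22.8, 20.5 and 39.7 CPM in DOX4X, and 8.37, 10.6 and 71.6 CPM in DOX1X 1 to 3. Ngfr, the low-affinity receptor of nerve growth factor, had 2.38, 6.17, 11 and 6.04 CPM in PBS, 0.358, 0.234, 0.301 and 1.14 CPM in DOX4X, and 0.171, 0.121 and 4.68 CPM in DOX1X. For Ngfr all DOX4X libraries lay below all PBS libraries (log2 fold change -3.63, edgeR adjusted p = 0.17). Tenm4, a teneurin of the cell surface, had 30.1, 37.0, 36.7 and 35.3 CPM in PBS, 12.9, 15.6, 16.6 and 21.9 CPM in DOX4X, and 15.5, 16.4 and 36.6 CPM in DOX1X. In each of these genes DOX1X 3 lay within or near the PBS values and DOX1X 1 and 2 within or below the DOX4X values. Among genes named by list, Smoc2, a matricellular protein, had 44.7, 50.6, 76.2 and 66.1 CPM in PBS and 11.8, 40.6, 20.2 and 30.8 CPM in DOX4X (edgeR adjusted p = 0.15).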
